A study of Mus musculus with 15 samples.

Results

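Cell cycle genes were followed through a mouse model of steatohepatitis by reading 47 listed genes, chosen by name for their roles in DNA synthesis and mitosis, from a table of 57132 gene identifiers. The list also held Wee1, a checkpoint kinase gene that is under circadian control. All 47 were found in the table, and all 47 passed the filter on low counts that left 18181 genes for testing. For description they were grouped by role into 21 replication members (G1 cyclins and E2F factors, origin licensing, replication clamp and nucleotide supply) and 26 mitosis members (mitotic entry, kinases and checkpoint, spindle and cytokinesis, mitotic exit, and chromatin of cycling cells).

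A cell that divides passes through G1, copies its DNA in S phase, and separates the copies in mitosis. E2F factors, released when cyclin D and cyclin E kinases inactivate the retinoblastoma protein, switch on the S phase genes. The MuvB complex, with B-MYB and FOXM1, acts later on the mitotic genes, many of which carry a promoter element called the CHR (cell cycle genes homology region). The adult liver is mostly quiescent, and its hepatocytes re-enter the cycle after injury or loss of tissue, while macrophages, ductal cells and stellate cells of a diseased liver can also divide.

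The libraries were made from total RNA of whole liver pieces, so that fewer cycling cells and less RNA per cycling cell cannot be told apart. All mice were male C57BL/6J, 8 weeks old at the start, and were killed after 18 weeks. Chow mice (4 libraries analysed) ate a standard diet. The other groups ate CDA-HFD, a high-fat diet that lacks choline and is amino-acid adapted, throughout and, after the first 12 weeks, were injected intraperitoneally each day for 6 weeks with either vehicle (Kolliphor ELP at 15% in NaCl; Vehicle, 5 libraries) or SR9009 at 100 mg/kg/day (SR9009, 5 libraries). SR9009 is a synthetic agonist of REV-ERB alpha and beta, nuclear receptors that repress transcription within the circadian clock. Neither the hour at which livers were taken nor any injection of Chow mice is stated in the labels. Chow replicate 5 was not analysed here. Levels are given in CPM, counts scaled to a common library size with TMM factors, and are compared within a gene only.

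Total counts were 29950509 to 45542335 a library. Hepatocyte markers summed to 63307 to 147776 CPM in all 14 libraries. Among 1985 receptor genes of smell (olfactory, vomeronasal, trace amine), 158 to 243 had a count in Vehicle replicates 1 to 3 and SR9009 replicates 2, 4 and 5, against 50 to 113 in the other 8 libraries. The boundary between many and few, 120 receptor genes, was set at the widest gap among the diet-fed libraries. Chow replicate 1, at 113, lay just below it. Results are also given without the 6 libraries that had many. The 3 groups were fitted together with edgeR's quasi-likelihood test. Genes were called at an adjusted p (Benjamini-Hochberg, over all genes tested) under 0.05, and "rose" and "fell" are used for called genes only.

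Promoters of 6 members are shown as examples of the elements held by replication and mitosis members. Any relation between these elements and the size of a change was not tested. Each is the 300-base window from 250 bases before to 50 bases after the gene's start, in RefSeq's GRCm38.p6 table, read 5′ to 3′ on the gene's own strand. Capitals mark matches on either strand to 3 motifs: the E2F site (searched as TTTCGCGC, TTTGGCGC, TTTCCCGC and TTTGCCGC), the CHR (TTTGAA and TTCGAA) and the CCAAT box (CCAAT), the binding motif of NF-Y. Mcm6 (chr1:128359656-128359955, minus strand) and Mcm5 (chr8:75109259-75109558, plus strand) encode helicase subunits of S phase. Cdk1 (chr10:69352863-69353162, minus strand) encodes the kinase of mitotic entry and holds all 3 motifs. Cdc20 (chr4:118437294-118437593, minus strand) activates mitotic exit, and Mki67 (chr7:135716330-135716629, minus strand) encodes the proliferation marker Ki-67. Tk1 (chr11:117825965-117826264, minus strand) encodes thymidine kinase and holds none of the 3 motifs.
Mcm6: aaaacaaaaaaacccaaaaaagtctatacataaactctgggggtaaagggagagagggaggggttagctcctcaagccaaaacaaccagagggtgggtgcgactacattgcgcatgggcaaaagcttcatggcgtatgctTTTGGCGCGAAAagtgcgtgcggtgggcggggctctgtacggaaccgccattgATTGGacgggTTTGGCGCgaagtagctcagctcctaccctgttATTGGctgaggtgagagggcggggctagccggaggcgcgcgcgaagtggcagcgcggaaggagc
Mcm5: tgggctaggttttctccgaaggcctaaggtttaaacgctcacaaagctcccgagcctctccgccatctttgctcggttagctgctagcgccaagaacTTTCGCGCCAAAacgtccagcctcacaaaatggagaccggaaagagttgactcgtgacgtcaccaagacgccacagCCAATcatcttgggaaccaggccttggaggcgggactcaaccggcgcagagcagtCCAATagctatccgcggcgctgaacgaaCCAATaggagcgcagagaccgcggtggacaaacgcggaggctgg
Cdk1: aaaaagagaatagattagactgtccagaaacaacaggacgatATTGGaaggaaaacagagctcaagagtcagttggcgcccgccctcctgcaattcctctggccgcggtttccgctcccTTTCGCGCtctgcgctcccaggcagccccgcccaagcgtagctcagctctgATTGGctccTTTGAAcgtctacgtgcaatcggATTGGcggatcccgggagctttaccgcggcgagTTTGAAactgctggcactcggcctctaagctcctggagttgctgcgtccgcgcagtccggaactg
Cdc20: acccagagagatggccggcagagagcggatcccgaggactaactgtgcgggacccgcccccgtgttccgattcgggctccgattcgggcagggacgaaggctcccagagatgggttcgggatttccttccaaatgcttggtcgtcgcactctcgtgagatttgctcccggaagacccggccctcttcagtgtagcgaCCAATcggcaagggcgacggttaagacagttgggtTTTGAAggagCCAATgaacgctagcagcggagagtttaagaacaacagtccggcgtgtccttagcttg
Mki67: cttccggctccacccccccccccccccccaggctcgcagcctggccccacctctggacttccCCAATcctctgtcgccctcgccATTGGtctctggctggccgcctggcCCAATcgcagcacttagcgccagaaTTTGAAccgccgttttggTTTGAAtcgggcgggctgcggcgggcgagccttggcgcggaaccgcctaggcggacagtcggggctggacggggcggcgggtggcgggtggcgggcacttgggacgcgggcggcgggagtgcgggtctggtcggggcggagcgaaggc
Tk1: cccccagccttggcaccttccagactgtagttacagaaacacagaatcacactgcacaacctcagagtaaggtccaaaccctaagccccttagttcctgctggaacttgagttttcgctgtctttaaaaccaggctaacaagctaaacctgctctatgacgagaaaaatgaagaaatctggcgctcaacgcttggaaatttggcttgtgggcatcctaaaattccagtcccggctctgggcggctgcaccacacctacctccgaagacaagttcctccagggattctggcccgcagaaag

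The Mcm6 window held 3 E2F matches, the first starting 110 bases before the gene's start, and no CHR. The Cdc20 window held the reverse arrangement, a CHR 18 bases before the start between CCAAT boxes at 53 and 8 bases before it. Of the 47 members, 36 matched the table by symbol, with 38 promoters. E2F letters were found in 7 of 18 replication promoters (38.9%), in 1 of 20 mitosis promoters (5.0%, Cdk1) and in 2.26% of all 32851 promoters. CHR letters were found in 16 of 20 mitosis promoters (80.0%), in 4 of 18 replication promoters (22.2%) and in 19.2% of all promoters. The CCAAT box was found in 18 of 20 mitosis promoters (90%), in 12 of 18 replication promoters (66.7%) and in 37.4% of all. The 4 mitosis members in the table whose windows held no CHR were Birc5, Ccnb1, Cenpe and Nusap1. Of 3 clock elements, the E-box (CACGTG) was found in 1 of 38 member promoters (Tyms) and in 7.15% of all, the D-box (TTATGNAA) in 2 (Bub1b and Rrm1) and in 3.38% of all, and the RORE (ANTAGGTCA or ANTGGGTCA) in 0 and in 1.45% of all. The promoter of Wee1 was not in the table. A match is a description of the letters and not evidence of binding.

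**Figure D1:**
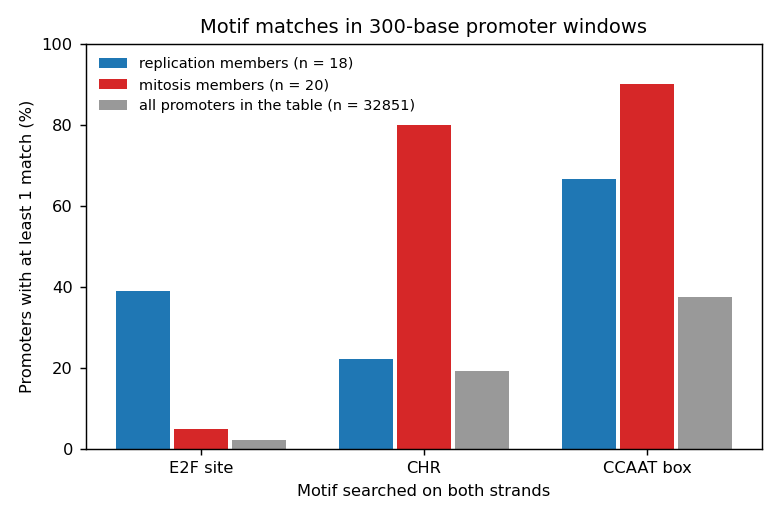
Share of 300-base promoter windows with at least 1 match to each motif, in percent, for replication members (n = 18 promoters), mitosis members (n = 20) and all promoters in the table (n = 32851). E2F letters reach 38.9% in replication members and CHR letters 80.0% in mitosis members, against 2.26% and 19.2% of all promoters.

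Vehicle against Chow asks what the diet, together with vehicle injection, did to these genes. Of the 47 members, 41 rose and 1 (Tk1) fell, and 5 were not called (Cdk2, Cdc45, Tyms, E2f1 and E2f8). Over all genes tested 55.2% were called, 29.8% higher and 25.4% lower. The members' median log2 fold change was 2.11, against 0.02 over all genes tested. A call with at least a 2-fold rise was made for 34 members, against 20.7% of all genes, and 41 members were higher in every Vehicle library than in every Chow library, against 24.7% of all genes. The replication and mitosis members differed in the size of the change. The median was 0.80 in the 21 replication members, of which 15 were called higher and 1 lower. It was 3.10 in the 26 mitosis members, all of which rose. These medians were not adjusted for the level of each gene in Chow. Without the 6 libraries with many receptor genes, 40 members were called (39 higher, 1 lower, against 40.4% of all genes) with a median of 2.02.

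**Figure D2:**
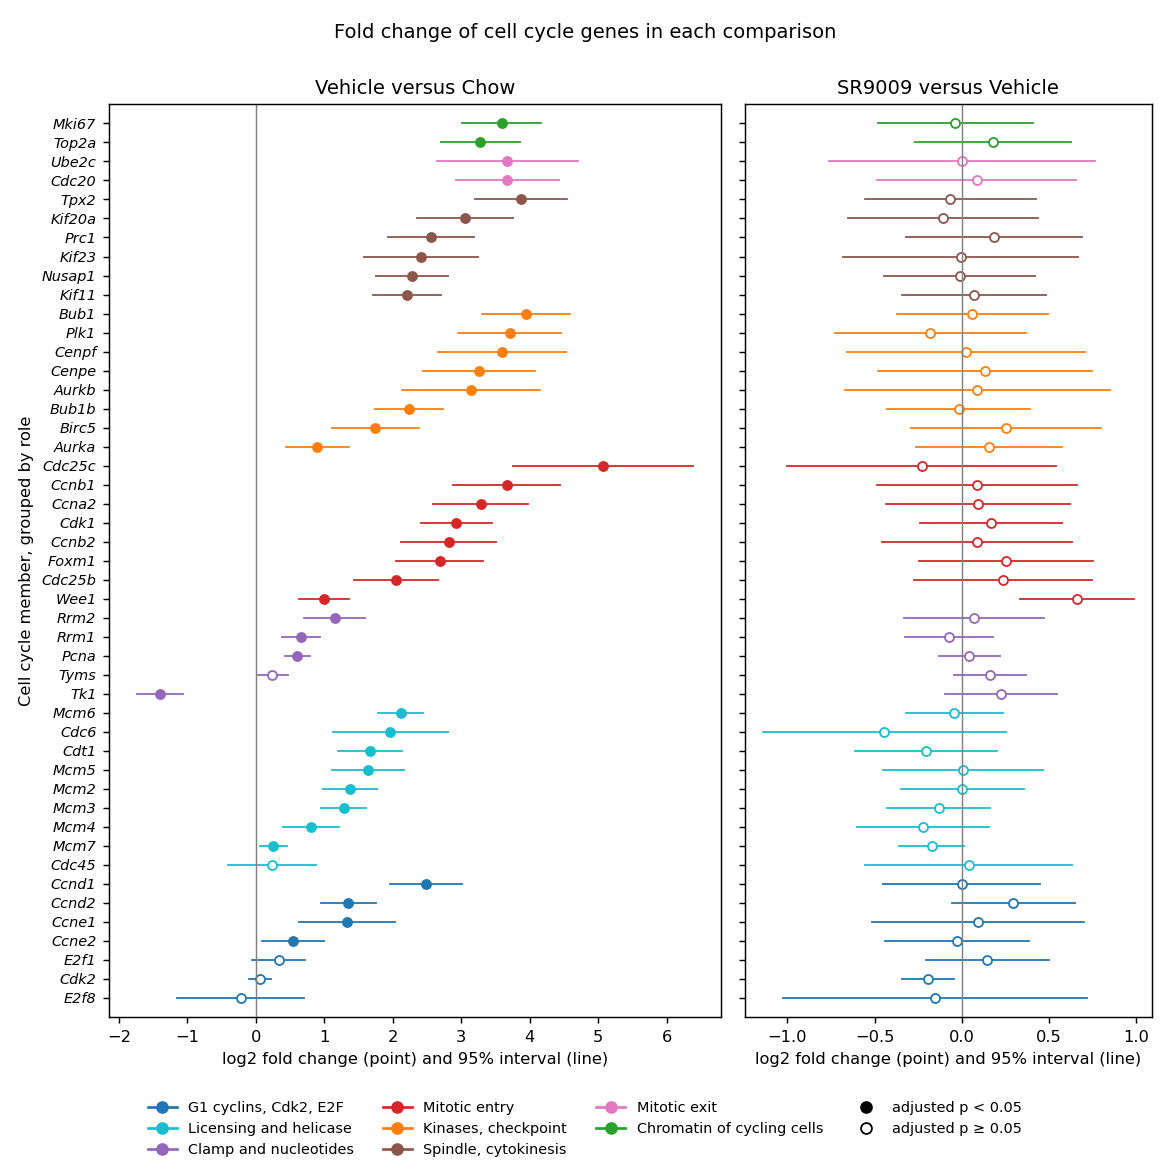
Log2 fold change of each of the 47 members (point) with its 95% interval (line), for Vehicle versus Chow on the left and SR9009 versus Vehicle on the right, on different x scales; colours are roles, and filled points have an adjusted p under 0.05. On the left all 26 mitosis members lie above 0 and Tk1 lies below it, and on the right no point is filled and Wee1 lies farthest from 0.

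Among G1 genes, Ccnd1, which encodes cyclin D1, the cyclin that hepatocytes raise as they leave quiescence, showed the largest change of its role. It measured 13.5, 14.7, 26.2 and 28.8 CPM in the Chow libraries and 88.4, 164, 106, 130 and 95 CPM in the Vehicle libraries. The lowest Vehicle library was far above the highest Chow library, and the log2 fold change was 2.49 ± 0.25 (SE; adjusted p = 1.11e-06 in edgeR's quasi-likelihood test). Ccnd2, a second D cyclin gene, rose by 1.35 ± 0.19 on the log2 scale, and Ccne1, which encodes a cyclin of S phase entry, rose by 1.33 ± 0.33. Ccne2, its paralog, rose by only 0.54 ± 0.21 (edgeR adjusted p = 0.0424), and 13 of 24 other settings ended this call, as listed in the closing section. Ccne2 overlaps Ints8 on the opposite strand, which fell from a mean of 23.0 CPM in Chow to 14.8 CPM in Vehicle. The use of strand in counting is not stated in the labels, and the part of Ints8 in the Ccne2 counts was not tested.

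Cdk2, the kinase partner of the E cyclins, was not called, except with unscaled library totals. Its Chow libraries measured 15.2, 16.4, 17.2 and 17.1 CPM and its Vehicle libraries 16.3, 17.2, 16.5, 17.6 and 18.3 CPM, so that the ranges overlapped, with a ratio of 1.04 (95% interval 0.931 to 1.16). E2f1, an activating E2F factor, measured 4.98, 6.33, 3.71 and 5.03 CPM in Chow and 4.52, 7.69, 5.28, 6.92 and 7.17 CPM in Vehicle, and its log2 fold change of 0.33 ± 0.18 was not called (edgeR adjusted p = 0.132). The Vehicle library with the lowest E2f1, replicate 1, decided this: without it the adjusted p was 0.0477 at a log2 fold change of 0.43, and unscaled library totals also gave a call. E2f8, an atypical E2F that represses S phase genes and promotes polyploidy in hepatocytes, was the replication member that varied most within Chow and within Vehicle. It measured 6.14, 2.38, 10.8 and 6.27 CPM in Chow and 3.08, 3.62, 5.49, 3.20 and 11.9 CPM in Vehicle, with a coefficient of variation of 53.7% and 68.4%. The groups overlapped almost fully, and the log2 fold change of −0.22 ± 0.43 (edgeR adjusted p = 0.688) had no fixed sign: it was 0.16 without Chow replicate 3, 0.26 with unscaled library totals and 0.039 with the receptor gene class of the libraries as a term.

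Of the 9 genes of origin licensing and the replicative helicase, 8 rose, with a median log2 fold change of 1.37. Mcm6, a subunit of the MCM2-7 helicase whose promoter is shown above, changed most. It measured 5.40, 5.47, 4.73 and 5.15 CPM in Chow and 18.5, 31.3, 20.7, 22.9 and 19.0 CPM in Vehicle. Every Vehicle library was above 3 times the level of any Chow library, and the log2 fold change was 2.11 ± 0.15 (edgeR adjusted p = 2.55e-08). The licensing factors Cdc6 and Cdt1 rose by 1.96 ± 0.40 and 1.66 ± 0.22 on the log2 scale. The other helicase subunits rose unequally, by 1.64 (Mcm5), 1.37 (Mcm2), 1.28 (Mcm3), 0.80 (Mcm4) and 0.26 (Mcm7) on the log2 scale. Mcm7 had the smallest of these rises (20.6 ± 2.01 CPM, SD, n = 4, in Chow, and 24.6 ± 1.34, n = 5, in Vehicle). Its call (edgeR adjusted p = 0.0293) was lost without Chow replicate 4 (0.0920) or Vehicle replicate 2 (0.0646), with the receptor gene class as a term (0.164), with a replicate block, and with only the libraries of few receptor genes, 5 of the 24 other settings. Mcm7 overlaps Cops6 and Ap4m1 on the opposite strand, and the use of strand in counting is not stated in the labels. Cdc45, a helicase cofactor, was the member of this role that was not called: it measured 2.07, 1.95, 1.09 and 2.23 CPM in Chow and 1.37, 3.39, 1.51, 3.02 and 1.49 CPM in Vehicle. In 3 Vehicle libraries it lay within the Chow range and in 2 above it, and the log2 fold change was 0.24 ± 0.31. Cdc45 overlaps Ufd1 on the opposite strand, which fell from a mean of 51.2 CPM in Chow to 38.0 CPM in Vehicle. The part of Ufd1 in the Cdc45 counts was not tested.

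Of the 5 clamp and nucleotide genes, 3 rose. Rrm2, the regulated small subunit of ribonucleotide reductase, rose by 1.15 ± 0.21 on the log2 scale, the most in this role, while the large subunit Rrm1 rose by 0.66 ± 0.13 and the sliding clamp Pcna by 0.61 ± 0.09. Tyms, thymidylate synthase, measured 7.33, 7.96, 7.32 and 8.49 CPM in Chow and 7.80, 9.04, 10.2, 9.57 and 9.35 CPM in Vehicle. Only Vehicle replicate 1 fell within the Chow range, and the log2 fold change of 0.24 ± 0.11 (edgeR adjusted p = 0.0630) was called without that library (0.0276) and in 5 of 24 other settings in all.

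Tk1, the thymidine kinase of the nucleotide salvage pathway, went the other way. It measured 34.0, 45, 22.8 and 33.4 CPM in Chow and 10.0, 12.5, 13.6, 13.0 and 14.9 CPM in Vehicle. All Vehicle libraries were below all Chow libraries, and the level fell by 1.4 ± 0.16 on the log2 scale (edgeR adjusted p = 2.66e-06). Tk1 overlaps Afmid, a gene of tryptophan breakdown that lies on the opposite strand in the GENCODE M21 annotation, and without strand the reads of the pair cannot be told apart. Afmid, named after its values were seen, measured 40.2 ± 7.06 CPM (SD, n = 4) in Chow and 7.39 ± 1.03 CPM (n = 5) in Vehicle and fell by 2.44 ± 0.17 (edgeR adjusted p = 1.57e-08). Its part in the Tk1 counts was not tested. In all, 16 of the 47 members overlap a protein-coding gene in that annotation.

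**Figure D3:**
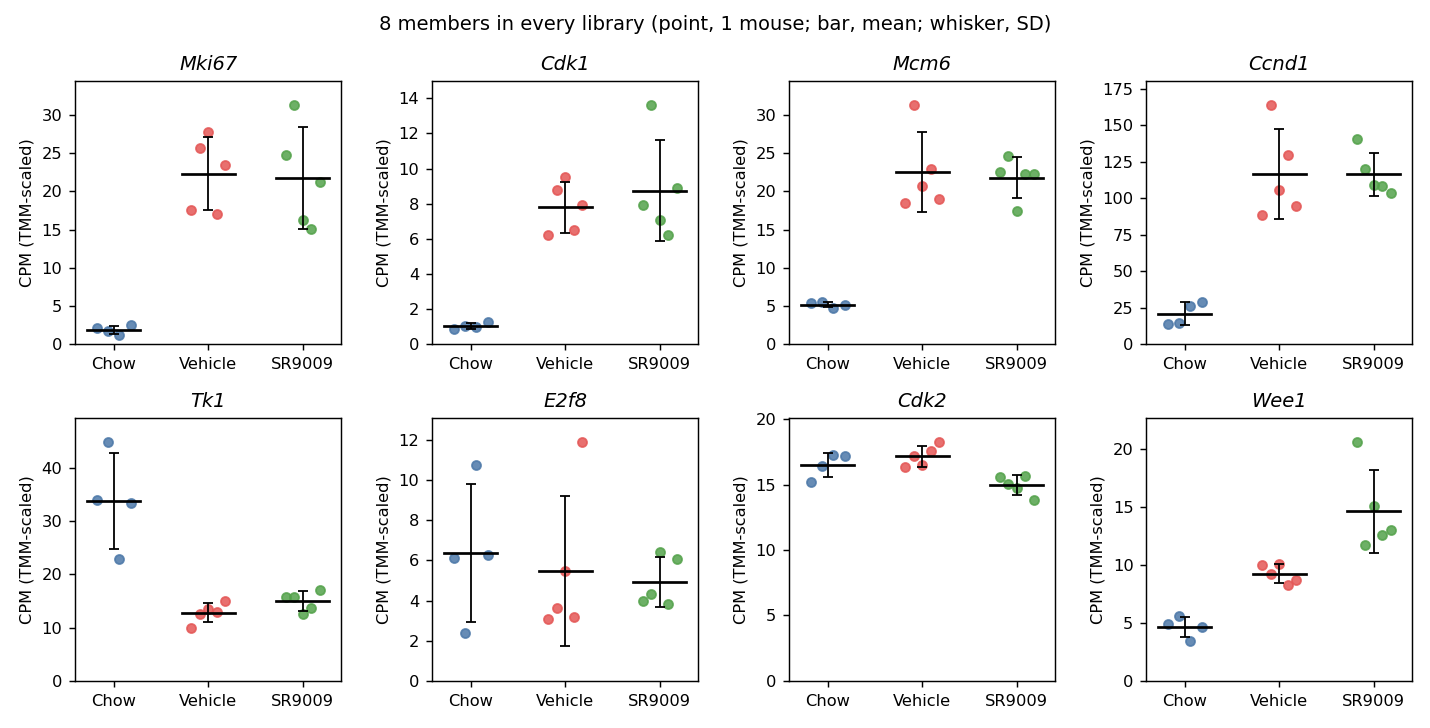
CPM (linear axes from 0) of 8 members in every library, with the mean (bar) and SD (whisker) of Chow (n = 4), Vehicle (n = 5) and SR9009 (n = 5). Mki67, Cdk1, Mcm6 and Ccnd1 are higher in all diet-fed libraries than in Chow and Tk1 is lower, while SR9009 libraries are all above Vehicle for Wee1 and all below Vehicle for Cdk2.

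The 26 mitosis members rose without exception. Mki67 measured 2.07, 1.75, 1.19 and 2.47 CPM in Chow and 17.6, 25.6, 27.8, 17.1 and 23.5 CPM in Vehicle. The lowest Vehicle library lay well above the highest Chow library, and the log2 fold change was 3.59 ± 0.27 (edgeR adjusted p = 6.66e-08). Top2a, the topoisomerase that untangles sister chromatids, measured 1.23, 0.888, 2.35 and 1.48 CPM in Chow and 11.2, 16.5, 15.5, 12.7 and 16.0 CPM in Vehicle, a log2 fold change of 3.28 ± 0.27.

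Mitotic entry genes had a median log2 fold change of 2.87. Cdk1 measured 0.877, 1.03, 0.960 and 1.24 CPM in Chow and 6.2, 8.8, 9.5, 6.48 and 7.94 CPM in Vehicle, with no overlap and a log2 fold change of 2.93 ± 0.24 (edgeR adjusted p = 1.03e-07). Its cyclins Ccnb1, Ccna2 and Ccnb2 rose by 3.66, 3.28 and 2.82 on the log2 scale, and Foxm1, the transcription factor of G2 genes, by 2.68. Cdc25c, a phosphatase that activates CDK1, was barely detected in Chow, with 1, 0, 2 and 1 counts, and had 289 counts over the 5 Vehicle libraries. The ratio of these rates was 36.9 (exact 95% interval 14.3 to 136, for counting error only), and the fitted log2 fold change was 5.07 ± 0.62. Wee1, the kinase that holds CDK1 inactive, had the smallest rise of this role, from 4.91, 5.55, 3.44 and 4.62 CPM in Chow to 9.95, 9.20, 10.1, 8.26 and 8.73 CPM in Vehicle. Its groups did not overlap either, and the log2 fold change was 1.0 ± 0.17 (edgeR adjusted p = 0.000131).

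Mitotic kinases and checkpoint genes had a median of 3.20, from 0.90 ± 0.22 for Aurka, the centrosomal kinase, to 3.94 ± 0.30 for Bub1, a kinetochore checkpoint kinase. Aurka measured 3.09, 4.15, 3.21 and 2.89 CPM in Chow and 4.79, 6.82, 7.16, 5.71 and 6.68 CPM in Vehicle. Bub1 measured 0.105, 0.172, 0.132 and 0.0824 CPM in Chow, where it had 15 counts in all, and 1.53, 2.07, 2.01, 2.11 and 2.20 CPM in Vehicle. Both genes separated the groups completely, although the size differed widely. Between them lay Plk1 (3.71), Cenpf (3.59), Cenpe (3.26), Aurkb (3.15), Bub1b (2.24) and Birc5 (1.74), all log2 fold changes, and Aurkb had a single count in Chow replicate 1.

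Spindle and cytokinesis genes had a median of 2.49. The smallest rise was that of Kif11, the motor that separates spindle poles, from 1.16, 0.973, 1.59 and 1.44 CPM in Chow to 4.43, 6.89, 6.60, 5.38 and 6.45 CPM in Vehicle (2.21 ± 0.23 on the log2 scale). The largest was that of Tpx2, the activator of Aurora A on the spindle, from 0.596, 0.859, 0.596 and 0.412 CPM to 6.27, 10.4, 13.1, 6.90 and 9.27 CPM (3.87 ± 0.31). In neither gene did the groups overlap. Of the mitotic exit genes, Cdc20, the activator of the anaphase-promoting complex, measured 1.37, 1.46, 1.66 and 0.618 CPM in Chow and 9.81, 18.8, 22.2, 14.6 and 17.2 CPM in Vehicle. Ube2c, the E2 enzyme of that complex, measured 0.491, 0.544, 0.298 and 0.783 CPM in Chow and 3.58, 6.66, 12.7, 4.57 and 5.98 CPM in Vehicle. Both had a log2 fold change of 3.67, with SE 0.48 for Ube2c against 0.35 for Cdc20. Within Vehicle, Ube2c had the highest coefficient of variation of the mitosis members, at 53.1%.

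**Figure D4:**
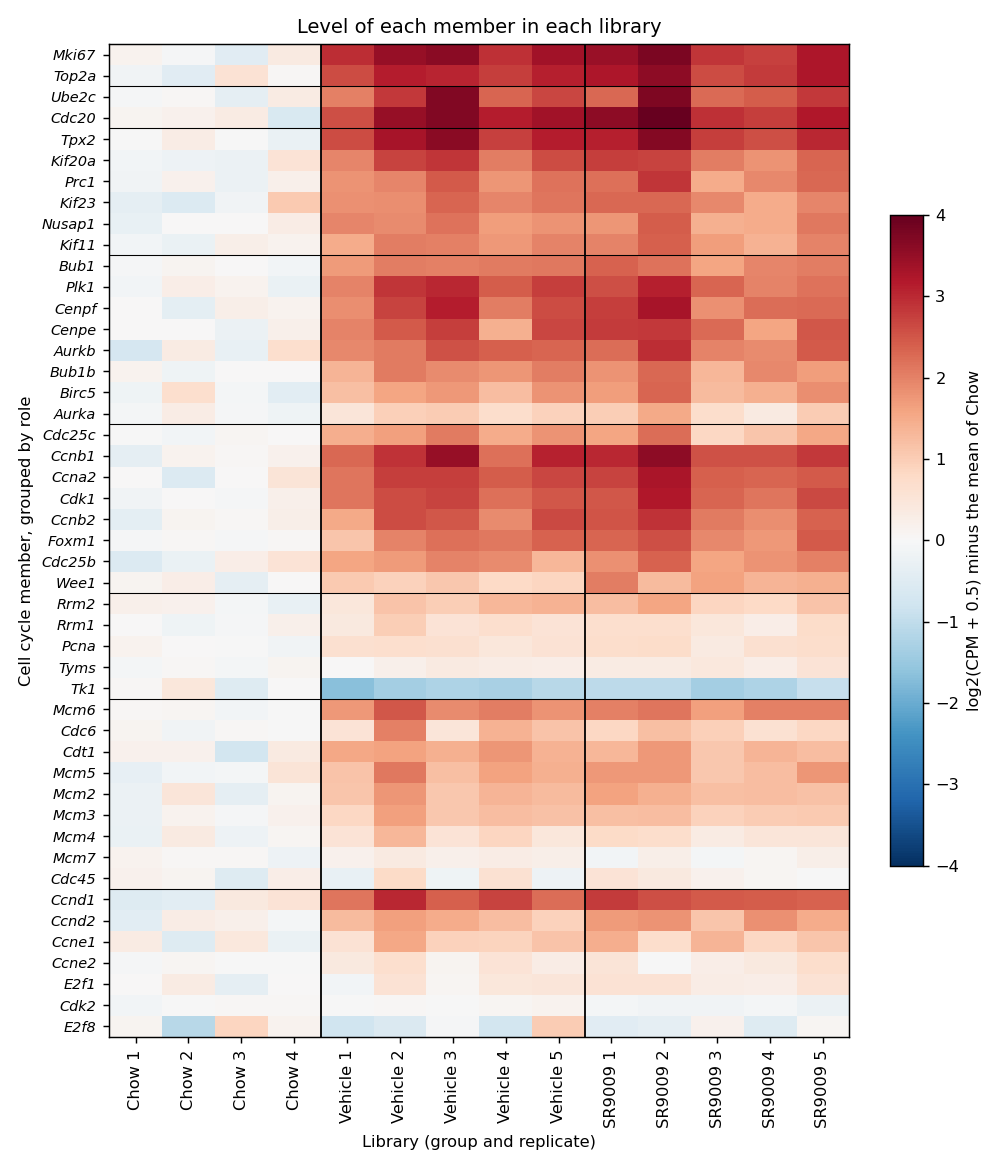
Log2(CPM + 0.5) of each of the 47 members in each of the 14 libraries, minus the mean of Chow (red, higher; blue, lower); lines separate groups and roles. Mitosis members in the upper rows are high in all diet-fed libraries and mostly darkest in SR9009 replicate 2, Tk1 is the single uniformly low row, and Cdk2 and E2f8 at the foot were not called in any comparison of the fit over all 3 groups.

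Other genes of the pathway, listed by function and not counted among the 47, were read from the same fit, in which 55.2% of all genes were called. These lists too were chosen with earlier results of these data known, so they are not an independent check. Of 58 further mitosis genes 51 rose and 3 fell (93.1% called, median log2 fold change 2.50), whereas of 37 further DNA replication genes tested 16 rose and 4 fell (54.1% called, median 0.30). The largest rise among the mitosis genes was that of Ckap2l, a spindle protein gene (4.67), and the largest fall that of Ccnf, an F-box cyclin gene (fell by 1.26). Ckap2l measured only 0.281, 0.115, 0.0662 and 0.495 CPM in Chow. Among replication genes Uhrf1, which couples DNA methylation to replication, rose by 3.28, and Mcm10 fell by 1.52. Mcm10 measured 101, 106, 196 and 133 CPM in Chow and 38.8, 40.4, 36.2, 48.8 and 70.1 CPM in Vehicle, so that the groups did not overlap. Of 29 regulators 11 rose and 5 fell (55.2% called), with a median of 0.14, so that regulators and further replication genes were called about as often as all genes. Cdkn3, a phosphatase that acts on CDKs, rose most (4.40), from 0.105, 0.143, 0.132 and 0.0824 CPM in Chow, close to the level of 3 counts. Of 12 inhibitors 8 rose and 0 fell (66.7% called), with a median of 0.86. The stress gene Gadd45b rose by 3.21 ± 0.20 on the log2 scale, the CDK inhibitor Cdkn1a by 2.47 ± 0.21, and its relative Cdkn1b by 0.28 ± 0.09.

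Markers of other cell types moved with the members in this comparison. Macrophage markers (10 of 10 higher) summed to 98.6 to 274 CPM in Chow and 1769 to 2666 CPM in Vehicle, cholangiocyte markers (8 of 8 higher) to 13.2 to 27.7 and 74.0 to 198 CPM, and stellate cell and myofibroblast markers (7 of 8 higher) to 103 to 180 and 675 to 895 CPM. T and NK cell markers (8 of 10 higher) summed to 5.46 to 10.3 CPM in Chow and 15.3 to 20 CPM in Vehicle. Neutrophil markers (6 of 8 higher, with Camp at 0 in every Chow library) summed to 1.4 to 7.79 and 4.43 to 108 CPM. Hepatocyte markers (8 of 9 lower) summed to 107690 to 147776 CPM in Chow and 77130 to 84813 CPM in Vehicle. Endothelial markers (1 of 8 higher, 2 lower), B and plasma cell markers (0 of 7 called) and red cell markers (1 of 5 lower) moved less as lists. The part of these cell types in the rise of the cell cycle genes was not tested.

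SR9009 against Vehicle asks how these genes differed under the REV-ERB agonist once the diet was in place. No member was called by edgeR's quasi-likelihood test: 0 of 47 were higher and 0 lower, against 0.242% of all genes called (0.165% higher, 0.077% lower). At an unadjusted p under 0.05 there were 2 members (Wee1 and Cdk2), against 7.28% of all genes, and DESeq2 called 1 (Wee1), against 1.35%. The members' log2 fold changes ran from −0.44 to 0.66 with a median of 0.04, against 0.00 over all genes tested. Within the class of libraries with few receptor genes 0 members were called, where 5 of all 17840 genes tested were higher and 1 lower. Within the class with many, 0 members were called, where 15 of 17860 genes were higher and 8 lower. With so few calls over all genes, these counts of 0 say little about the members. The 95% interval of the ratio lay within 2-fold for 45 of the 47 members and within 1.5-fold for 22. For the other 25, Wee1 among them, it reached beyond 1.5-fold.

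Mki67 measured 17.6, 25.6, 27.8, 17.1 and 23.5 CPM in Vehicle and 24.8, 31.3, 16.2, 15.1 and 21.3 CPM in SR9009. The highest and the lowest values of the 10 libraries were both in SR9009. The ratio of SR9009 to Vehicle was 0.974 (95% interval 0.716 to 1.32), and the exact two-sided permutation test gave p = 0.794 (5 against 5 libraries). The sign of this near-zero difference changed with the libraries used. Top2a and Cdk1 measured 16.3 ± 4.44 and 8.75 ± 2.90 CPM in SR9009 (SD, n = 5), against 14.4 ± 2.32 and 7.79 ± 1.43 CPM in Vehicle, and Ccnd1 116 ± 14.8 against 117 ± 30.8 CPM.

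Wee1 stood highest among the members in this comparison. It measured 9.95, 9.20, 10.1, 8.26 and 8.73 CPM in Vehicle and 20.6, 11.7, 15.1, 12.6 and 13.0 CPM in SR9009. Every SR9009 library was above every Vehicle library, a separation in this direction that 0.891% of all genes showed. The ratio was 1.58 (95% interval 1.26 to 1.98; log2 fold change 0.66 ± 0.15), with an unadjusted p of 0.000565 and an adjusted p of 0.127 by edgeR's quasi-likelihood test, so that it was not called. DESeq2 called it with an adjusted p of 0.00868 at the same size. The exact two-sided permutation test of log2 CPM gave p = 0.00794, the smallest that 5 against 5 libraries allow. Any complete separation of the 2 groups gives this value, so it is not evidence beyond the separation. Adjusted over the 2 members tested in this way (Wee1 and Mki67) it was 0.0159, which leaves the other members out of account.

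The size of the Wee1 difference depended on the libraries. Without SR9009 replicate 1, the highest, and in the other fits that left out 1 library, the log2 fold change was between 0.50 and 0.73 and the adjusted p between 0.0998 and 0.270. Among the 4 diet-fed libraries with few receptor genes (2 against 2) it was 1.07, and among the 6 with many (3 against 3) it was 0.33, with adjusted p-values of 0.294 and 0.404. The direction was the same in both classes. The mean level was 4.63 ± 0.884 CPM (SD, n = 4) in Chow, 9.25 ± 0.785 in Vehicle and 14.6 ± 3.58 in SR9009 (n = 5 each), and the step from Vehicle to SR9009 was not called by edgeR. An antisense RNA gene on the opposite strand at Wee1, 1600010M07Rik, had mean levels of 0.068 CPM in Chow, 0.366 CPM in Vehicle and 0.134 CPM in SR9009. It rose in Vehicle versus Chow (log2 fold change 2.37, edgeR adjusted p = 0.00262). In SR9009 versus Vehicle its log2 fold change of −1.44 was not called (edgeR adjusted p = 0.362).

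Cdk2 differed in the other direction. Its SR9009 libraries measured 15.6, 15.1, 14.8, 15.6 and 13.8 CPM, all below the lowest Vehicle library at 16.3 CPM, a separation that 0.979% of all genes showed. The difference was small, with a ratio of 0.873 (95% interval 0.788 to 0.967), and was not called (edgeR unadjusted p = 0.0126, adjusted p = 0.433). The next smallest unadjusted p-values were those of Mcm7 (0.0646), Ccnd2 (0.0969) and Tyms (0.115), with log2 fold changes of −0.17, 0.29 and 0.16. For Mcm7 the SR9009 libraries measured 19.1, 24.4, 19.7, 21.8 and 24.3 CPM against 23.3, 26.7, 23.8, 25.2 and 24.3 CPM in Vehicle, and the groups overlapped. For Ccnd2 they measured 24.6, 26.5, 16.3, 27.1 and 21.1 CPM against 18.0, 23.3, 21.1, 17.8 and 14.1 CPM, again with overlap. For Tyms they measured 9.80, 9.89, 10.6, 9.54 and 11.7 CPM against 7.80, 9.04, 10.2, 9.57 and 9.35 CPM, and these overlapped too.

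Of the 136 other cell cycle genes tested, 0 were called in this comparison by edgeR, against 0.242% of all genes. At an unadjusted p under 0.05 there were 6, against 7.28% of all genes. DESeq2 called 1, against 1.35% of all genes. This was Gmnn, which encodes geminin, the inhibitor of the licensing factor CDT1. Gmnn measured 6.25, 5.04, 5.40, 6.86 and 6.09 CPM in Vehicle and 7.72, 9.09, 8.16, 7.02 and 7.96 CPM in SR9009. All SR9009 libraries were above all Vehicle libraries, as in 1 of the 136 genes and in 0.891% of all genes. The log2 fold change was 0.43 (edgeR unadjusted p = 0.00286, adjusted p = 0.245). Gmnn was named after its values were seen. Cdkn1a measured 23.6, 44.0, 28.4, 25.1 and 23.5 CPM in Vehicle and 20.4, 24.6, 15.2, 22.2 and 21.7 CPM in SR9009, with overlap through SR9009 replicate 2 and a log2 fold change of −0.47 (edgeR adjusted p = 0.504). Summed macrophage markers were 1455 to 2141 CPM in SR9009 and stellate cell and myofibroblast markers 576 to 1205 CPM, ranges that overlapped those of Vehicle. Hepatocyte markers summed to 63307 to 80642 CPM in SR9009, also with overlap.

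SR9009 against Chow shares the Chow libraries with the first comparison and the SR9009 libraries with the second, so its values are set beside theirs and are not further evidence. Of the 47 members 41 rose and 1 (Tk1) fell, against 56.2% of all genes called, 30.5% higher and 25.7% lower. The median log2 fold change was 2.22 over the members and 0.02 over all genes tested. E2f1 and Tyms were called here, at 0.48 and 0.40 (edgeR adjusted p = 0.0341 and 0.00388), whereas Ccne2 and Mcm7 were not, at 0.51 and 0.08 (0.0525 and 0.475). Mki67 rose by 3.55 on the log2 scale, Wee1 by 1.65, and Tk1 fell by 1.17. Tk1 measured 15.8, 15.7, 12.5, 13.8 and 17.1 CPM in SR9009, still below every Chow library.

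The livers also differed from one another within a group, and for most diet-fed livers the replication and the mitosis members lay on the same side of the mean (8 of 10). Each library was given the mean log2(CPM + 0.5) of the members, relative to the mean of the diet-fed libraries. Chow libraries lay between −0.83 and −0.70 for replication members and between −2.37 and −2.10 for mitosis members. This range is narrow on a scale where the added 0.5 compresses low levels. Vehicle replicate 2 was highest for replication members (0.30) but not for mitosis members (0.09), and it was the highest Vehicle library in 15 of 21 replication members and in 4 of 26 mitosis members. Vehicle replicate 3 showed the reverse, at −0.11 and 0.31, and was the highest in 1 of 21 and in 18 of 26. Vehicle replicate 1 was low for both (−0.27 and −0.41) and was the lowest of its group in 33 of 47 members.

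Among SR9009 libraries, replicate 2 stood out for mitosis members (0.58) and not for replication members (0.09). It was the highest of its group in 22 of 26 mitosis members, among them Ube2c at 13.1 CPM against 4.42 to 6.68 CPM in the other 4. Replicates 3 and 4 were low for mitosis members (−0.30 and −0.34). Within SR9009 the median coefficient of variation was 13.2% for replication members and 32.5% for mitosis members, while within Vehicle it was 21.4% and 21.3%. Within Chow it was 21.3% and 30.9%. These are descriptions of single livers, and no difference in spread between the groups was tested. Vehicle replicate 2 also held the highest neutrophil marker sum of all libraries, at 108 CPM.

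**Figure D5:**
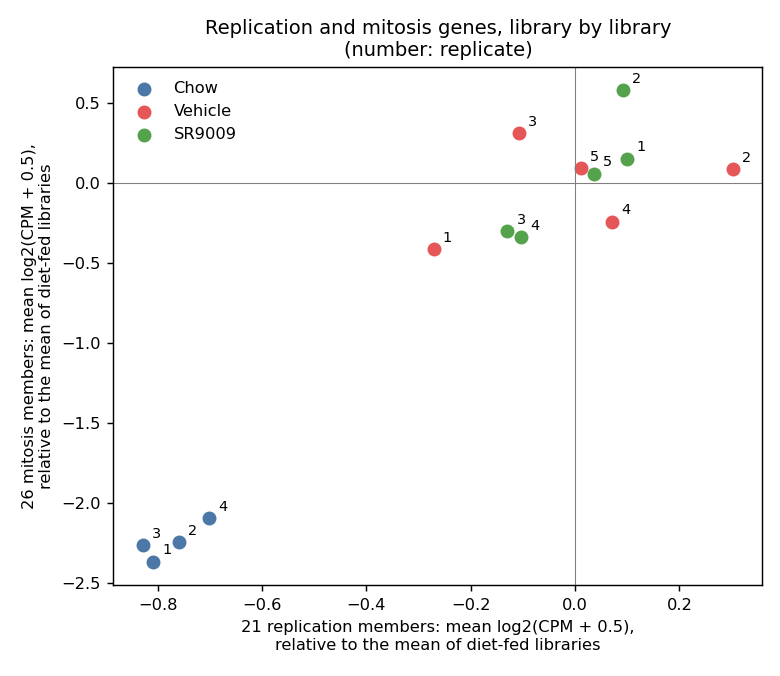
Mean log2(CPM + 0.5) of the 21 replication members (x) and of the 26 mitosis members (y) in each library, relative to the mean of the diet-fed libraries, with replicate numbers. The 4 Chow libraries lie together at the lower left, Vehicle replicate 2 is farthest right (0.30) and SR9009 replicate 2 highest (0.58).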

How the data were processed

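RNA from snap-frozen liver pieces was sequenced, and the table analysed here holds raw counts per gene and library, as deposited. The submitters' processing notes name STAR 2.7.11b and the build GRCm39; the annotation, the counting tool and the use of strand are not stated there or in the labels. Of 57132 identifiers, 51880 (90.8%) had a symbol. Groups and replicate numbers came from the sample titles, and labels name 15 libraries, of which 14 were analysed. Replicates are separate libraries whose titles name a group, and p-values measure the spread between them.

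Genes were kept by filterByExpr (minimum count 10, minimum total 15; 18181 genes, 99.9% of counts), scaled by TMM (factors 0.753 to 0.824 in Chow, 1.02 to 1.15 in diet-fed libraries) and fitted over all groups with edgeR 4.0.16 (robust quasi-likelihood test) in R 4.3.3, with Benjamini-Hochberg adjustment. A floor of 3 counts was 0.0607 to 0.124 CPM, and intervals and floors from counts cover counting error only. No 2 libraries of a group agreed within sampling noise over the 26 pairs. Alternatives used DESeq2 1.42.0, limma 3.58.1, other scalings and filters, a replicate block, a receptor gene class term and leaving out each library; fits within a receptor gene class were added after seeing the data. Exact permutation tests used SciPy 1.17.1. The fit was tested on simulated data.

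The members and lists were chosen with earlier results of these data known. Values are printed for Mki67, Top2a, Ccnd1, Cdk1, Wee1, E2f1 and E2f8, for the largest and smallest change of each role, for members not called or lower after the diet, and for the 5 smallest p-values with SR9009; from each further list, for the largest and smallest called change. Promoters came from RefSeq's GRCm38.p6 table, matched by symbol only, because the counts use another build.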

Additional observations from a re-analysis of the deposited data

Results flagged for a closer look

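In 6 of the 141 sets of values (47 members in 3 groups), 1 library stood apart from the rest of its group by Dixon's criterion, about the share that chance gives (5% of groups). Chow replicate 4 was high for the cytokinesis motor genes Kif20a (1.36 CPM, next 0.667) and Kif23 (2.10 CPM, next 0.662). Chow replicate 2 was high for Ccne2 (1.46 CPM, next 1.32), a small gap in a very narrow group. Vehicle replicate 1 was low for Bub1 (1.53 CPM, next 2.01), and Vehicle replicate 5 was high for E2f8 (11.9 CPM, next 5.49). SR9009 replicate 2 was high for Ube2c (13.1 CPM, next 6.68).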

How the results depend on the processing

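Over 24 other settings, the members called in Vehicle versus Chow numbered 40 to 45 (40 to 43 in fits leaving out 1 library). For SR9009 versus Chow those fits gave 40 to 43, and for SR9009 versus Vehicle 0. The members' median log2 fold change was 2.60 (Vehicle versus Chow) and 2.69 (SR9009 versus Chow) with unscaled library totals, which moved the median of all genes to 0.50 and 0.47 and the calls over all genes in Vehicle versus Chow from 5414 higher and 4621 lower to 10389 and 1378. For SR9009 versus Chow it was 1.95 in libraries with few receptor genes only. In SR9009 versus Vehicle, DESeq2 called 1 member and 1 other cell cycle gene, and called Wee1 at 0.66. Mki67 in that comparison changed sign, between −0.21 and 0.069 in fits leaving out 1 library and 0.018 in libraries with few receptor genes. E2f8 in Vehicle versus Chow changed sign to 0.26 (unscaled totals), 0.039 (class term) and 0.25 (few receptor genes only), and lay between −0.73 (without Vehicle replicate 5) and 0.16 (without Chow replicate 3) in fits leaving out 1 library. Ccne2 lost its call in Vehicle versus Chow without Chow replicate 1, 2, 3 or 4, Vehicle replicate 1, 2 or 4, or SR9009 replicate 4, with limma, with no low-count filter, with the replicate block, with the class term and with few receptor genes only (13 of 24 settings, adjusted p up to 0.124). Mcm7 lost its call in 5 of 24 (up to 0.164) and Spc24 in 2, unscaled totals and few receptor genes only (up to 0.131). The cause of these changes was not tested.

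Replicate numbers shared between groups gave no sign of pairing the libraries. Correlations ran from −0.367 to 0.203 between same-numbered libraries and from −0.452 to 0.536 between differently numbered ones. Such correlations cannot exclude pairing. With a replicate block, 40 members were called in Vehicle versus Chow, 0 in SR9009 versus Vehicle and 42 in SR9009 versus Chow, and Wee1 had 0.64 (adjusted p = 0.236) in SR9009 versus Vehicle. Low counts in Chow limit the size of the change for Cdc25c, Bub1 and Aurkb, and for Ckap2l and Cdkn3 among the further genes named.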

Other observations

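Btg2, an antiproliferative immediate early gene among the other inhibitors, measured 46, 134, 40.8, 97.7 and 45.4 CPM in Vehicle and 24.5, 28.2, 26, 48.6 and 28.5 CPM in SR9009, a log2 fold change of −1.22 with an unadjusted p of 0.00647 and an adjusted p of 0.345 by edgeR's quasi-likelihood test. The groups overlapped through SR9009 replicate 4. Fen1, the flap endonuclease of replication, was close to 0 in every library, at 0 to 0.156 CPM, and did not pass the filter on low counts. Besides Mcm10 and Ccnf, the kinetochore gene Spc24 fell from 19.6, 23.2, 17.2 and 12.8 CPM in Chow to 10.5, 7.67, 9.59, 12.3 and 13.6 CPM in Vehicle, by 0.76 ± 0.17 on the log2 scale (edgeR adjusted p = 0.00115), although the groups overlapped. With unscaled library totals Spc24 fell short of a call, at −0.29 (adjusted p = 0.131), as it did in libraries with few receptor genes only. These genes were named after their values were seen.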
